A study of Mus musculus with 2 samples.

Results

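The 9 genes described here encode transcription factors of heart muscle and repressors that bind them. They are the 4 MEF2 genes Mef2a, Mef2b, Mef2c and Mef2d, the serum response factor gene Srf, the myocardin gene Myocd, and 3 genes of class IIa histone deacetylases, Hdac4, Hdac5 and Hdac9. They were chosen by gene symbol and not by a rule on their measured values, but with earlier results of these data known. All 9 were found among the 55536 genes of the annotation, of which 21951 code for protein. Hearts of 2 male B6CASTF1/J mice, an F1 hybrid, were taken at 25 days of age, and total RNA was sequenced as 1 library per animal from 300 ng of RNA with synthetic spike-in RNAs added. The hybrid carries 1 genome of a C57BL/6 parent and 1 of a CAST parent. The labels call the libraries biological replicates 1 and 2 and number the animals separately, but give both the same donor identifier. There is no second strain, treatment, age or tissue, so no groups were compared and no test was possible. An exact sign-flip test of 2 hearts cannot give a two-sided p below 0.5.

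MEF2 proteins bind DNA as dimers through a MADS domain and an adjoining MEF2 domain, and drive genes of contraction, calcium handling and energy metabolism in the heart. SRF has a related MADS domain, binds CArG boxes, and gains strength on muscle genes from its coactivator myocardin. Class IIa deacetylases bind MEF2 and repress its targets until kinases phosphorylate them, after which 14-3-3 proteins carry them out of the nucleus. The MEF2 genes are also spliced in a muscle-specific way. Mef2a, Mef2c and Mef2d each hold a pair of mutually exclusive exons, called alpha1 and alpha2 here in transcript order, just after the DNA-binding part, and a short beta exon that adds acidic residues to the activation domain.

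The splice choices are easiest to follow on the sequences. The beta exons are shown in capitals, between the 15 bases that adjoin them in the spliced transcript, because their shares differed most among the MEF2 genes. All are given 5′ to 3′ on the strand of the gene, as GENCODE M21 transcripts on mm10, the reference and not the alleles of these mice.
Mef2a beta exon, chr7:67244521-67244544, minus strand: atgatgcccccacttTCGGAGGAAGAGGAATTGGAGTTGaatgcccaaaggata
Mef2c beta exon, chr13:83654598-83654621, plus strand: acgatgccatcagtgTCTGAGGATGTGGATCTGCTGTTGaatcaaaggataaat
Mef2d beta exon, chr3:88161781-88161801, plus strand: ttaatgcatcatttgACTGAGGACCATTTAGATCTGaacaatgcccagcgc
The exon has 24 bases in Mef2a and Mef2c and 21 in Mef2d, so it never shifts the reading frame. In a pairwise alignment, 17 of 24 positions (70.8%) were identical between Mef2a and Mef2c, and 13 of 24 (54.2%) between Mef2a and Mef2d.

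The alpha exons are shown for Mef2d and Mef2c, the genes with the lowest and the highest alpha2 share. Capitals mark the bases that are identical in an alignment of alpha1 with alpha2 of the same gene.
Mef2d alpha1 exon, chr3:88158034-88158171, plus strand: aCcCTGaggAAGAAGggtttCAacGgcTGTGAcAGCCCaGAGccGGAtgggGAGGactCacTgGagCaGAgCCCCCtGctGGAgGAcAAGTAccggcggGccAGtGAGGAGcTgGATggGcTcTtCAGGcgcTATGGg
Mef2d alpha2 exon, chr3:88158221-88158355, plus strand: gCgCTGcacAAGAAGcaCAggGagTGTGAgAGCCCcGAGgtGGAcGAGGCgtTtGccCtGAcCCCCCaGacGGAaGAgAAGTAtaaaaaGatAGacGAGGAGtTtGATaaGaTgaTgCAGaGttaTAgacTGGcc
Mef2c alpha1 exon, chr13:83625265-83625408, plus strand: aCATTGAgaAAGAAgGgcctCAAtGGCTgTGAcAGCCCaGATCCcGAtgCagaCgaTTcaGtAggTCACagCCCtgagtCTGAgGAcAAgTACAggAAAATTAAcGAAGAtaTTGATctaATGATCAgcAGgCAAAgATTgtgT
Mef2c alpha2 exon, chr13:83625470-83625607, plus strand: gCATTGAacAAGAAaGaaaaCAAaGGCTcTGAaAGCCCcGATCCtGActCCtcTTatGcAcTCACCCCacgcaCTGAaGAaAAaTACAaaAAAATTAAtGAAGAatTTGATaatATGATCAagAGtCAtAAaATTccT
The pair was 55.2% identical in Mef2d and 64.8% in Mef2c. The alpha2 exons of different genes resembled each other more than they resembled their own alpha1, with 77.5% identity between Mef2a and Mef2c against 55.1% between the pair within Mef2a. The alpha1 exons of Mef2a and Mef2c were 66.0% identical.

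Levels are given in TPM, which divides reads by transcript length and brings all libraries to 1 common sum, so that genes can be set beside each other. Each library was quantified in 2 ways in the deposited files. The first rests on an alignment to the transcriptome and gives the values below unless the second, derived directly from the reads, is named. Gene counts summed to 38253821 in replicate 1 and 40655101 in replicate 2, and spike-ins added 193998 and 236086. Heart muscle markers were present, with all 5 between 344 ± 13.0 TPM (Ryr2, the calcium release channel) and 8557 ± 353 (Myh6, the adult ventricular myosin heavy chain). Markers of other cells of the heart were lower, from Tcf21 (4.24 ± 0.467) to Dcn (143 ± 9.98) in the fibroblast list, from Tie1 (21.9 ± 1.35) to Egfl7 (54.2 ± 1.07) in the endothelial list and from Cnn1 (2.86 ± 0.177) to Acta2 (76.9 ± 17.6) in the smooth muscle list. Neuron markers ran from 0.035 ± 0.0212 (Syt1) to 0.105 ± 0.134 (Snap25). The skeletal muscle list was at most 0.71 TPM in any heart (Tnnt3), and Myod1, Myog and Myh1 were at 0 in both. Errors are SD over the 2 hearts (n = 2) throughout.

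Of the 9 genes, 8 reached 1 TPM in both hearts, against 49.7% of all protein-coding genes. The order of the means ran from Hdac5 through Mef2a, Mef2d, Srf, Myocd, Mef2c, Hdac4 and Hdac9 to Mef2b. Neighbours in this order were taken as apart where the hearts did not overlap and the means differed by more than the larger SD. All 8 neighbouring pairs were apart in the first quantification, and 6 of them in the second. The exceptions were Hdac5 against Mef2a, where the second quantification had Mef2a higher (51.3 and 60.7 TPM), and Myocd against Mef2c, whose hearts overlapped there.

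**Figure D1:**
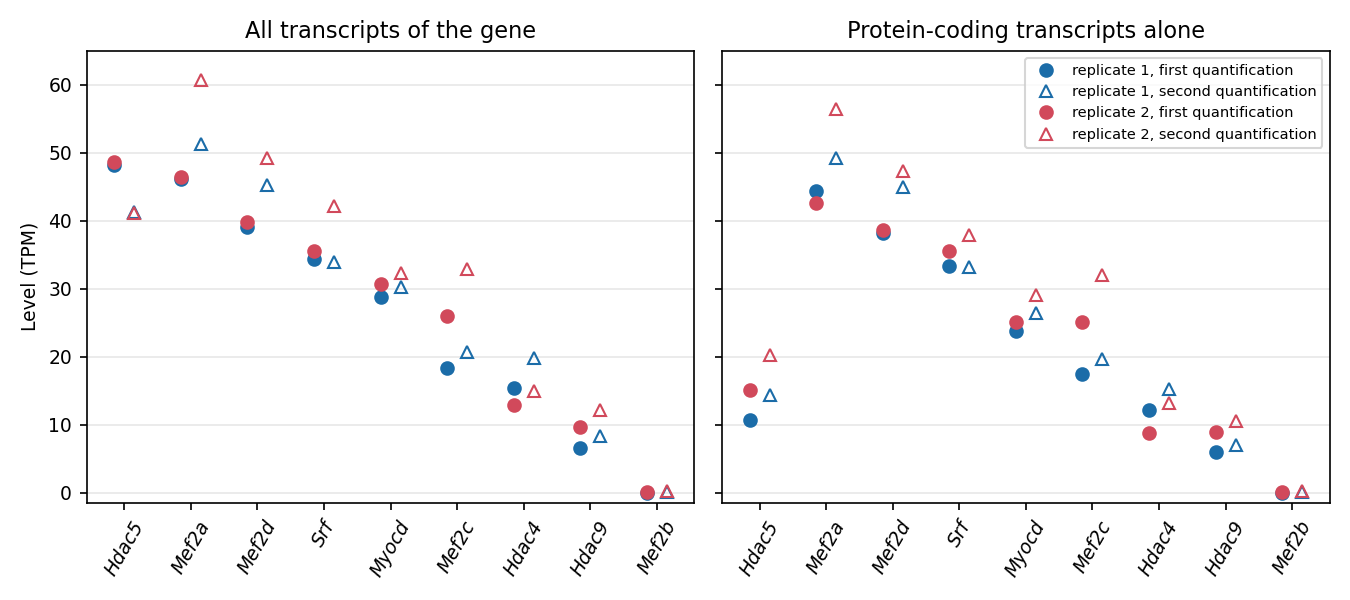
Level of each gene in TPM (y axis) by gene (x axis), in replicate 1 (blue) and replicate 2 (red), in the first (filled circles) and second (open triangles) quantification, from all transcripts (left) and protein-coding transcripts alone (right). In the first quantification Hdac5 stood first at 48.5 TPM on the left and sixth at 12.9 TPM on the right, and in the second it was below Mef2a and Mef2d on the left too.

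Mef2a (chr7:67231163-67372858, minus strand), a MEF2 gene expressed broadly in muscle and brain, was at 46.1 TPM in replicate 1 and 46.4 in replicate 2. Its hearts were nearly the same in this quantification, though 51.3 and 60.7 TPM in the second, and its mean of 46.2 ± 0.191 TPM was above that of 95.1% of protein-coding genes. Mef2d (chr3:88142372-88172086, plus strand), the MEF2 gene known for stress-dependent remodelling of the heart, was at 39.1 and 39.8 TPM. Mef2c (chr13:83504034-83667080, plus strand), which is required for the embryonic heart to loop, was at 18.3 and 26.0 TPM. It was lower than Mef2a and Mef2d in both hearts and varied far more between them.

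Within a heart, Mef2a exceeded Mef2d by 0.23 ± 0.01 on the log2 scale of TPM + 0.1. Mef2d exceeded Mef2c by 1.09 in replicate 1 and by 0.61 in replicate 2, so the order was shared by the hearts and its size was not. The second quantification gave 1.12 and 0.58 for the same pair.

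Mef2b (chr8:70139711-70167488, plus strand), best known from B lymphocytes, had a count of 0 in replicate 1 and of 5 in replicate 2, or 0 and 0.11 TPM. A count of 0 in replicate 1 allows up to 3 counts, or 0.0784 CPM (gene counts brought to 1 common sum, without division by length). Mef2b was therefore not reliably detectable at this depth, and no fold is given for it. The B cell markers were low as well, with 0 of 4 at 1 TPM and a summed level of 1.78 TPM in replicate 1 and 1.84 in replicate 2, none of them at 0, from Ms4a1 (0.29 ± 0.0707) to Cd79a (0.695 ± 0.0212). Mef2b overlaps Borcs8 on the same strand, so that its few reads cannot be assigned with certainty.

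Srf (chr17:46548329-46556175, minus strand) was at 34.4 and 35.5 TPM, and its coactivator Myocd (chr11:65176561-65269989, minus strand) at 28.8 and 30.7 TPM. The hearts were close in both genes here, while the second quantification had Srf at 33.9 and 42.1 TPM and Myocd at 30.2 and 32.2. Srf exceeded Myocd by 0.23 ± 0.03 (log2). The myocardin-related factors Mrtfa and Mrtfb, which carry actin signals to SRF, were lower, at 3.03 ± 0.297 and 9.54 ± 0.898 TPM. Myocd exceeded Mrtfa by 3.26 ± 0.07 and Mrtfb by 1.63 ± 0.20 (log2), in both hearts.

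Hdac5 (chr11:102194432-102230166, minus strand) had the highest gene level of the 9, at 48.3 and 48.7 TPM, and Hdac4 (chr1:91928779-92195699, minus strand) was at 15.3 and 12.9 TPM. Hdac9 (chr12:34047580-34917095, minus strand) was the lowest of these deacetylases, at 6.52 and 9.59 TPM. Hdac5 exceeded Hdac4 by 1.78 ± 0.18, Hdac9 by 2.60 ± 0.38 and Hdac7, another class IIa gene at 10.6 ± 0.325 TPM, by 2.18 ± 0.03 (log2). Hdac4 exceeded Hdac9 by 1.22 in replicate 1 and by 0.43 in replicate 2. These ratios rest on all transcripts of each gene.

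The lead of Hdac5 held in the first quantification alone and only with all transcripts counted. In the second it was at 41.3 and 41.1 TPM, below Mef2a and below Mef2d (45.3 and 49.3). Its count was only 2850 in replicate 1 and 3131 in replicate 2, against 6016 and 6399 for Mef2a. Its effective length was 1807 and 1830 bases, against 3991 and 3926 for Mef2a. This is the mean length on which reads can start, weighted by each transcript's share of the gene. It thus depends on how reads were divided among transcripts. When protein-coding transcripts alone were summed, an alternative chosen after the data were seen, Hdac5 was at 10.7 and 15.2 TPM and took place 6 of the 9, below Mef2c. Mef2a then led at 44.3 and 42.6 TPM, followed by Mef2d at 38.3 and 38.6. On coding transcripts Hdac5 was below Hdac4 in replicate 1, at -0.20, and above it in replicate 2, at 0.78 (log2), so that their order was not shared by the hearts. Hdac4 over Hdac9 was likewise at 1.03 and -0.04, while Hdac5 stayed above Hdac9 by 0.79 ± 0.06. The second quantification gave the same places, with Hdac5 at 14.3 and 20.3 TPM and Mef2a at 49.2 and 56.5.

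The rest of the Hdac5 signal lay in transcript models that are not annotated as coding for protein. Retained-intron models took 46.5% of the TPM of Hdac5 in replicate 1 and 52.2% in replicate 2. In the second quantification they took 38.4% and 34.2%. The mean of 49.3% was above that of 97.0% of the 6595 protein-coding genes at 1 TPM or more that have such models, whose median was 5.99%. In the second quantification 36.3% was above 92.3% of them. A model subject to nonsense-mediated decay, Hdac5-205, took a further 16.5% and 9.19%. The other 7 genes at 1 TPM or more had at most 9.36% in retained-intron models in either heart (Hdac9, replicate 1) in the first quantification and at most 16.7% (Hdac4, replicate 1) in the second. Hdac5 has 10 annotated models of this type, against at most 4 in the others (Mef2a) and 0 in Myocd. What this number adds to the share was not tested. Total RNA holds unspliced precursors beside finished messages, and these were not told apart here.

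**Figure D2:**
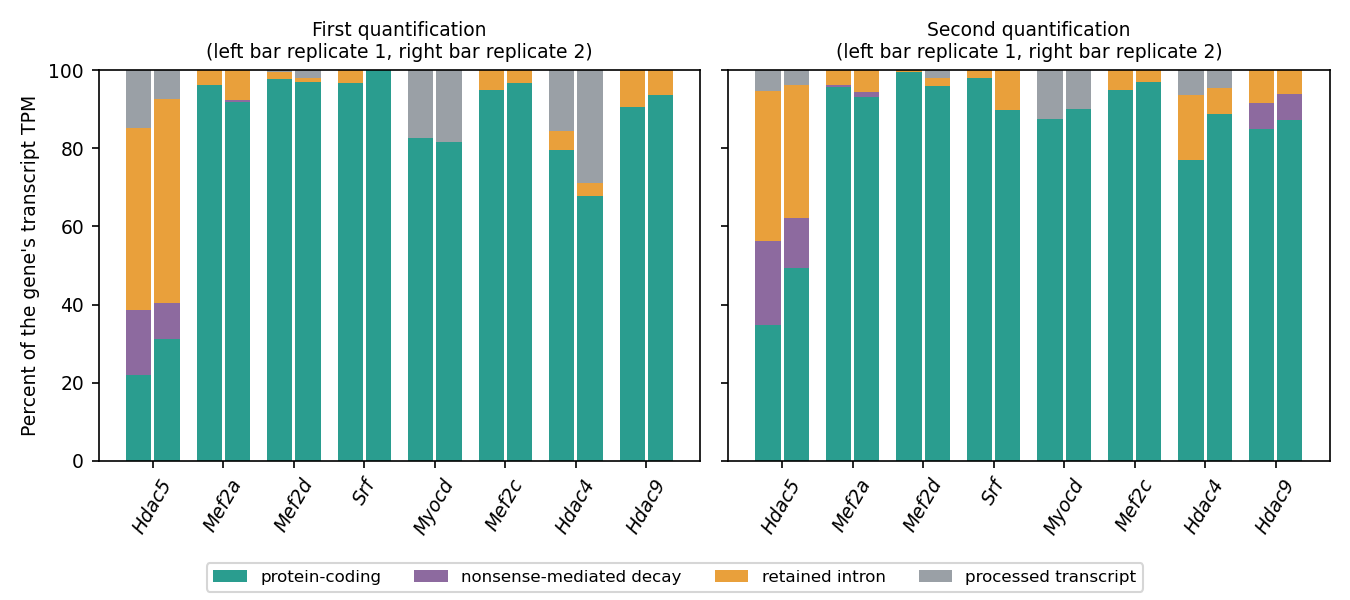
Percent of each gene's transcript TPM (y axis, from 0) in 4 annotated transcript types, for the 8 genes at 1 TPM or more (x axis), with replicate 1 as the left and replicate 2 as the right bar, in the first (left) and second (right) quantification. Protein-coding models make up 22.1% and 31.1% of Hdac5 in the first quantification and 67.9% or more of each of the other 7 genes.

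The leading transcript was the same in both hearts for 7 of these 8 genes, against 88.3% of the 10018 protein-coding genes at 1 TPM or more with several annotated transcripts. It was also the same in both quantifications for 6 of the 8, against 66.4%, so neither share stood far from the background. The exceptions were Hdac5, led by the 754-base retained-intron model Hdac5-211 in replicate 1 and by the coding Hdac5-204 in replicate 2, and Hdac4. Hdac4 was led by the full-length Hdac4-202 in the first quantification, at 35.2% and 28.3% of the gene. In the second quantification the incomplete 849-base model Hdac4-205 led at 30.3% and 32.3%. Incomplete models, whose ends are marked as not found in the annotation, held at least 48.1% of the protein-coding TPM of Hdac4 in each heart. Besides these, Hdac4-206 took 12.5% and 13.5% of the gene and the processed transcript Hdac4-204 took 15.4% and 23.8%, and in Hdac5 the retained-intron model Hdac5-217 took 14.1% and 18.6%.

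Transcript forms were compared as shares of the TPM of a gene's protein-coding transcripts, over those models that reach the segment in question. The alpha2 share was taken only over models with 1 of the 2 alpha exons, so that forms with neither were left out of it. In Mef2a, the beta exon was in 74.7% of this TPM in replicate 1 and in 74.9% in replicate 2. In Mef2d it was in 14.5% and 15.9%. The hearts of the 2 genes lay far apart, and the second quantification placed them at 72.7% and 76.0% for Mef2a and 13.8% and 14.8% for Mef2d. Mef2c lay between them, at 39.9% and 36.8%, and at 47.8% and 41.7% in the second quantification. Mef2a carried the exon mostly in Mef2a-208, its leading transcript, at 27.2 and 26.8 TPM. Mef2d-201, the leading form of that gene at 19.9 and 19.6 TPM, lacks it. So do Mef2d-204 (5.43 and 6.07 TPM) and Mef2d-202 (7.35 and 6.76), while Mef2d-203 (5.53 and 6.13) carries it.

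The alpha2 exon, known in Mef2d as the muscle-enriched choice, was in the minority in both Mef2a and Mef2d. It was in 20.8% and 21.02% of classified TPM in Mef2a, and in 19.2% and 17.5% in Mef2d. It lay in Mef2d-202 and, in the first quantification, in Mef2a-201, at 9.24 and 8.95 TPM, with Mef2a-203 at 0. In the second quantification Mef2a-201 was at 0 TPM in both hearts and Mef2a-203 carried alpha2, at 10.7 and 11.1 TPM. The incomplete Mef2a-205, at 7.87 and 6.86 TPM, has alpha1 and does not reach the beta exon. The second quantification gave 23.1% and 23.3% for Mef2a and 20.2% and 18.5% for Mef2d. No protein-coding model joins alpha2 with beta among the 6 of Mef2a or the 4 of Mef2d, and 1 of 27 does in Mef2c (Mef2c-203, at 0 TPM in both hearts). A message with both exons therefore could not be measured in Mef2a or Mef2d, and its reads would have been divided among other models. Among the full-length models of Mef2a in the first quantification, the shares of alpha2 (25.3% and 25.1%) and of beta were complements, because Mef2a-204 was at 0 TPM, so that they are 1 measurement there. In the second Mef2a-204 had 1.53 and 1.18 TPM, and the shares over full-length models were 25.6% and 26.1% for alpha2 and 70.7% and 71.1% for beta.

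In Mef2c the alpha2 share was 68.5% in replicate 1 and 62.4% in replicate 2, above Mef2a and Mef2d in both hearts. This value depended on incomplete models, which held 51.0% and 52.5% of the protein-coding TPM of Mef2c. The leading transcript, Mef2c-217, is such a model of 689 bases and took 22.9% and 20.5% of the gene. With full-length models alone, an alternative chosen after the data were seen, alpha2 was at 36.7% and 38.7%. The second quantification gave 58.1% and 52.8% over all coding models and 33.2% and 37.9% over full-length ones. The share of Mef2c was the highest of the 3 genes under each of these settings, while its position above or below 50% was not stable. All of these settings leave out its forms with neither alpha exon, which held 24.8% and 25.9% of its full-length coding TPM. With them counted, its full-length share would be lower and nearer to the 25.3% and 25.1% of Mef2a.

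Mef2c also had a form with neither alpha exon, Mef2c-219, at 2.11 and 3.09 TPM. Forms without an alpha exon made up 12.1% and 12.3% of its protein-coding TPM, and 24.8% and 25.9% over full-length models. The gamma segment of Mef2c is the first 96 bases of the last coding exon (chr13:83662307-83662402) and is known to repress transcription when included. It was in 44.0% and 47.3% of classified TPM in the first quantification and in 63.8% and 68.8% in the second, so that the quantifications placed it on different sides of 50%. Mef2c-212, with alpha1 and beta, was at 4.04 and 4.98 TPM, and Mef2c-201, with alpha2 and gamma, at 2.35 and 3.43.

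**Figure D3:**
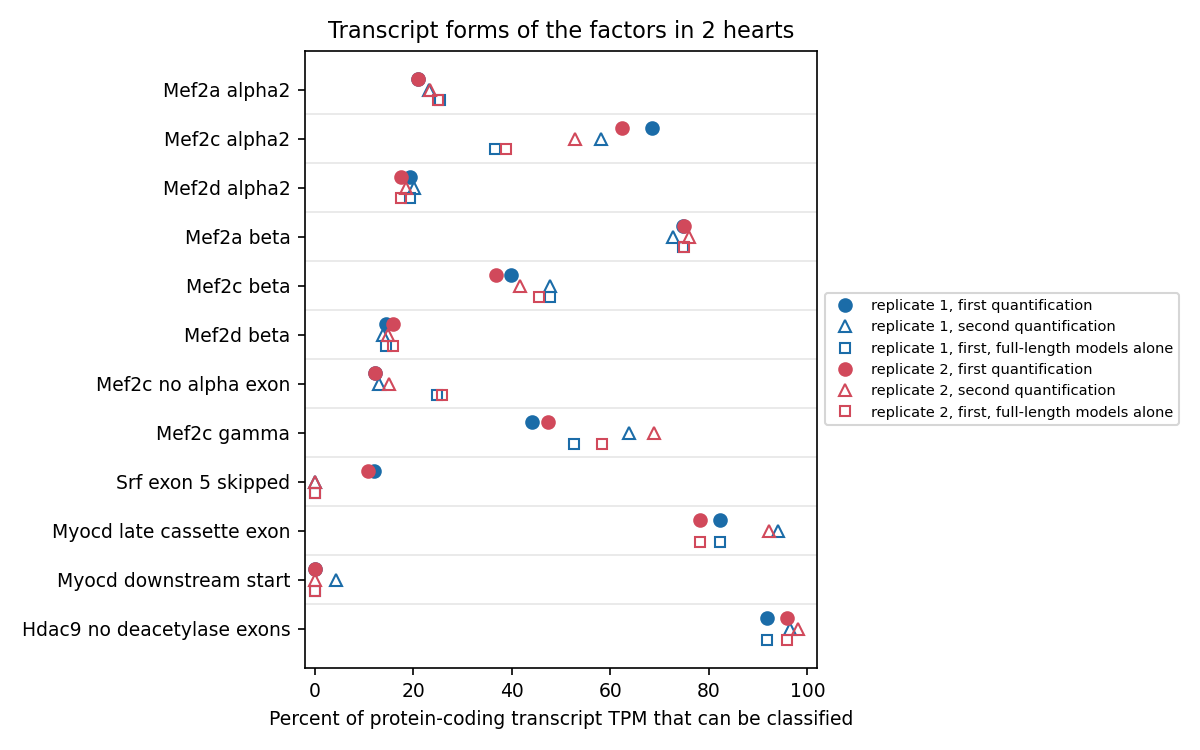
Share of protein-coding transcript TPM, in percent (x axis), that carries each named exon or form (y axis), in replicate 1 (blue) and replicate 2 (red). Alpha2 is taken over models with 1 of the 2 alpha exons. Filled circles are the first quantification, open triangles the second, and open squares full-length models of the first. Mef2a beta lies between 72.7% and 76.0% in all of them, and Mef2c alpha2 spreads from 36.7% to 68.5%.

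Myocd was carried by Myocd-203, at 18.4 and 18.8 TPM, which starts at the upstream start of the gene and encodes the long form known from heart, with the N-terminal segment that binds MEF2. Myocd-201, whose coding sequence starts downstream, was listed at 0 TPM in both hearts. In the second quantification it had 4.37% of classified TPM in replicate 1 and 0% in replicate 2. A late cassette exon of 144 bases (chr11:65184488-65184631) was included in 82.2% and 78.1%, and in 94.1% and 92.2% in the second quantification. Myocd-202, which lacks it, had 3.98 and 5.26 TPM. The processed transcript Myocd-205, of 377 bases, took 15.6% and 15.4% of the gene.

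Srf was carried by Srf-201, at 29.3 and 31.7 TPM, or 85.2% and 89.3% of the gene. The exon-5-skipping form, known to act as a dominant negative in muscle, is annotated only as the incomplete 376-base model Srf-202. It had 12.0% and 10.8% of coding TPM in the first quantification and 0% in both hearts in the second. The exon has 192 bases (chr17:46549845-46550036). The share of the skipping form thus rested on 1 quantification.

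The classified protein-coding TPM of Hdac9 lay almost entirely in forms without the exons of the deacetylase domain, known as MITR, which repress MEF2 through recruited partners. Such forms took 91.7% and 95.9% of classified TPM in the first quantification and 96.4% and 98.0% in the second. Outside this share, the retained-intron model Hdac9-209 took 9.37% and 6.36% of the gene in the first quantification. The nonsense-mediated decay model Hdac9-210 took 0% in both hearts there, and 6.81% and 6.51% in the second. Hdac9-201 led at 4.13 and 6.01 TPM, followed by Hdac9-208 at 1.01 and 2.25. The short form ends in 51 bases that the spliced long form does not carry. They are shown here in capitals after the 15 bases before them, because they mark where the transcript leaves the catalytic exons out.
Hdac9 short form end, chr12:34373827-34373877, minus strand: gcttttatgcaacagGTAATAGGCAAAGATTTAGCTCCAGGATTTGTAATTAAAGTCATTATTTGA
The capitals include the stop codon at their 3′ end. They lie directly past the splice site that the long forms use, so unspliced precursors of the long forms hold these bases too. In total RNA such precursors were not told apart from the short form, and their part in its share was not tested. The protein-coding forms with deacetylase exons summed to 0.48 TPM in replicate 1 and 0.37 in replicate 2, so that they were the smaller part of classified TPM in both hearts.

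Differences between the hearts were described over all genes first. Of the 12910 genes whose mean over the hearts was at least 1 CPM, 40 (0.31%) had a value in replicate 2 that was at least 2-fold that in replicate 1, and 117 (0.906%) the reverse, after scaling of counts by TMM, a normalization that assumes most genes are equal. None of the 8 of the 9 genes that passed this filter was in either set, which at these background shares is no result about them. There is 1 library per animal, so these ratios describe the 2 hearts, and their 95% binomial intervals cover counting error only. Scaling by spike-in counts moved the median of all genes from 0.01 to -0.13 (log2) and the split to 28 and 169, with 14.2% of the 2-fold genes higher in replicate 2 against 25.5%.

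Mef2c, Hdac9 and Hdac4 lay farthest apart. Mef2c had counts of 1666 and 2422 and was higher in replicate 2 by 0.40 (log2, interval 0.31 to 0.49). Hdac9, at 799 and 1199, was higher in replicate 2 by 0.45 (0.32 to 0.58). Hdac4, at 1760 and 1326, was lower in replicate 2, at -0.55 (-0.65 to -0.44), a difference larger than that of 94.6% of genes. The directions of all 3 were the same under spike-in scaling and in the second quantification. Hdac9 and Mef2c were larger than 91.7% and 89.9% of genes.

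The other 5 genes were within 0.1 of 0 under TMM scaling. Myocd was at 0.08, Srf at 0.07, Hdac5 at -0.004, Mef2d at -0.03 and Mef2a at -0.05 (log2). Under spike-in scaling Srf and Myocd changed sign, to -0.08 and -0.06, and Mef2a, Mef2d and Hdac5 were at -0.19, -0.17 and -0.15. Hearts are mixed tissue, and in bulk RNA more cells of a type and more RNA per cell cannot be told apart. The summed level of the 5 endothelial markers was 187 TPM in replicate 1 and 202 in replicate 2, though Egfl7 was lower in replicate 2. That of the 5 heart muscle markers was 16028 and 15891, with Myh6 and Ryr2 lower in replicate 2 and the others higher. The medians of these lists were 0.10 and 0.02 (log2). The 5 smooth muscle markers summed to 152 and 177, but 3 of them (Tagln, Cnn1 and Myh11) were lower in replicate 2 and the median of the list was -0.18 (log2). The 4 fibroblast markers summed to 239 and 217. Of these 4 lists every marker reached 1 TPM in both hearts and none was at 0, and their part in the differences was not tested.

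**Figure D4:**
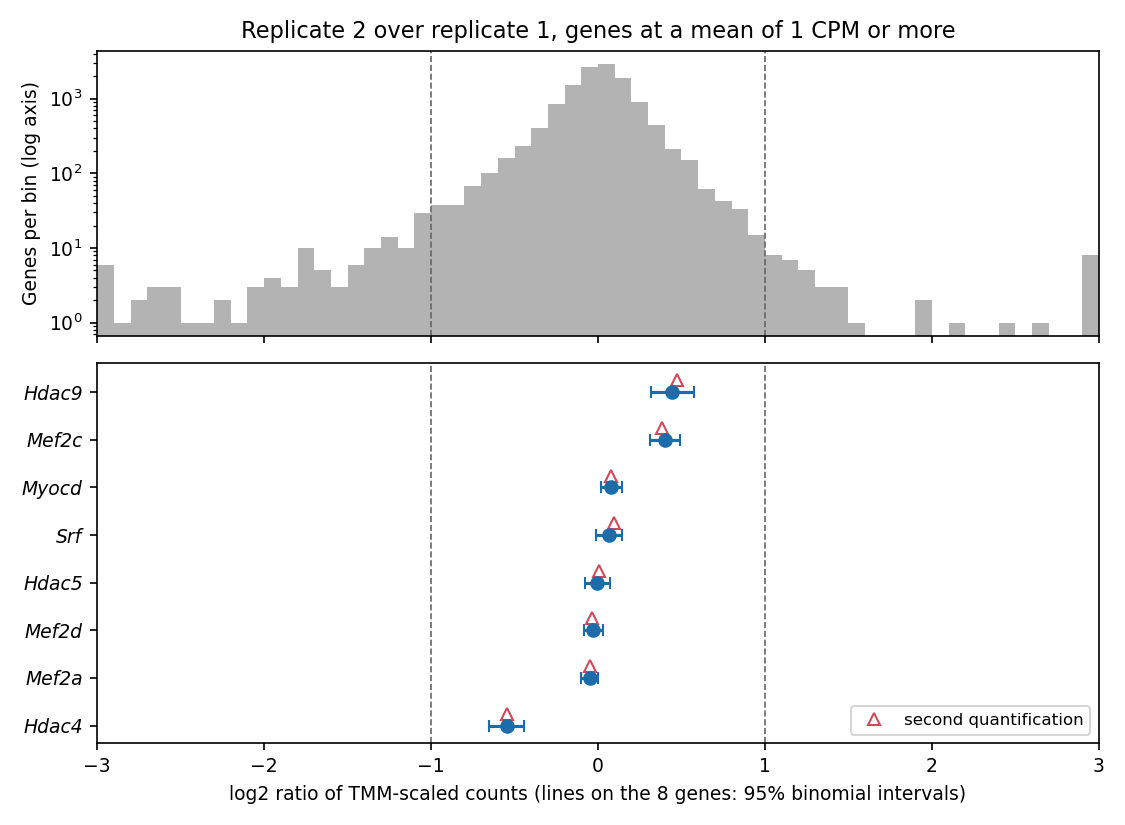
Top, number of genes per bin (log y axis) by log2 ratio of replicate 2 over replicate 1 (x axis), with genes beyond -3 or 3 in the end bins. Bottom, the 8 genes that passed the filter (y axis), with their 95% binomial interval (lines) and the second quantification (triangles), all inside the dashed lines at 2-fold.

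The quantifications were compared on gene TPM. Of 11067 protein-coding genes at 1 TPM or more in both, 1718 (15.5%) differed by 1.5-fold or more, and 0 of the 8 genes did, a count too small to set apart from that share. Transcript shares moved more, as Hdac5-211 took 19.6% and 20.3% of its gene in the first quantification and 0% and 2.57% in the second. The second quantification was higher by a median of 0.28 (log2) over all genes. Mef2a, Mef2c, Mef2d, Hdac4 and Hdac9 lay between 0.26 and 0.34. Srf and Myocd were at 0.12 and 0.07. Hdac5 was the exception, lower in the second quantification at -0.23 ± 0.01, a value above only 2.98% of genes.

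The partners of these factors were present at a wide range of levels. In 9 lists of pathway genes, 83 of 89 genes reached 1 TPM in both hearts, against the 49.7% given above. The lists were drawn up around heart muscle, with earlier results of these data known. The medians of the lists ran from 1.88 to 69.2 TPM, beside 29.7 for the 9 factors.

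All 9 SRF and MEF2 cofactors reached 1 TPM. Fhl2, a LIM-domain protein that binds SRF, was at 691 ± 104 TPM, Hopx, a homeodomain protein that binds SRF and not DNA, at 136 ± 10.7, and Elk4, a ternary complex factor, at 29.6 ± 2.17. Mamstr, a MEF2 coactivator of skeletal muscle, was the lowest at 1.83 ± 0.445. All 10 MEF2 activators and coactivators did so too, with the acetyltransferase gene Kat2b (29.2 ± 2.03) and the calcineurin subunits Ppp3r1 (22.1 ± 0.813) and Ppp3cb (21.6 ± 1.03) highest and the kinase gene Mapk7 (2.14 in both hearts) lowest.

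Among kinases that act on class IIa deacetylases 14 of 15 reached 1 TPM. Camk2d, the main calcium/calmodulin kinase II of the heart, was highest at 48.9 ± 6.89 TPM, followed by Prkaa2, a catalytic subunit of AMP-activated kinase, at 27.1 ± 1.90 and Sik3 at 24.8 ± 1.85. Camk4 was the exception at 0.13 ± 0.0849. Of the 14-3-3 proteins and the exportin gene Xpo1, 7 of 8 reached 1 TPM, with Ywhae at 194 ± 6.13, Ywhag at 99.5 ± 3.21 and Ywhaz at 45.0 ± 0.156, and Sfn lowest at 0.405 ± 0.177. Among other deacetylases and corepressors, the corepressor gene Ncor1 was at 44.6 ± 0.460, Hdac2 at 18.9 ± 2.04, and Hdac1, the lowest of 6 that all reached 1 TPM, at 5.96 ± 0.396.

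The targets of SRF split by kind. Of 15 contractile and cytoskeletal targets 14 reached 1 TPM in both hearts, with a median of 69.2 TPM. Cardiac actin Actc1 was at 5123 ± 973 TPM, tropomyosin Tpm1 at 4397 ± 390 and Actb at 298 ± 32.9, while Lmod1, a smooth muscle gene, was the lowest at 1.04 ± 0.0990. Of 6 immediate early targets 3 did, with a median of 1.88 TPM, from Junb (5.17 ± 0.325), Ier2 (5.16 ± 0.0566) and Egr1 (2.58 ± 0.191) down to Fosb (0.16 ± 0.0707). Under TMM scaling, 1 pathway gene that passed the filter on low counts was past 2-fold between the hearts, Acta1, the skeletal alpha-actin gene also used by the heart, named here after its value was seen. It was at 93.0 TPM in replicate 1 and 227 in replicate 2, or 1.25 higher on the log2 scale of scaled counts (1.20 to 1.30). The second quantification gave 1.25 too. Actin genes are similar enough that reads can be divided among them, and the part of this in the difference was not tested.

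All 11 MEF2 targets reached 1 TPM, with a median of 43.8. Muscle creatine kinase Ckm was at 1729 ± 108 TPM, the calcium-binding protein gene Hrc at 269 ± 10.4 and the glucose transporter gene Slc2a4 at 113 ± 4.19, and Nr4a1, an early nuclear receptor gene, was lowest at 2.01 ± 0.0566. Jun and Ppargc1a, named after their values were seen, were lower in replicate 2 at -0.92 and -0.91 (log2), just inside 2-fold, and at -1.06 and -1.05 under spike-in scaling. All 9 splicing regulators of muscle exons were present, led by Mbnl2 (83.7 ± 0.127), Rbm20 (78.7 ± 8.32) and Mbnl1 (66.4 ± 2.77), with Ptbp1, a repressor of muscle exons, lowest at 18.2 ± 1.87.

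**Figure D5:**
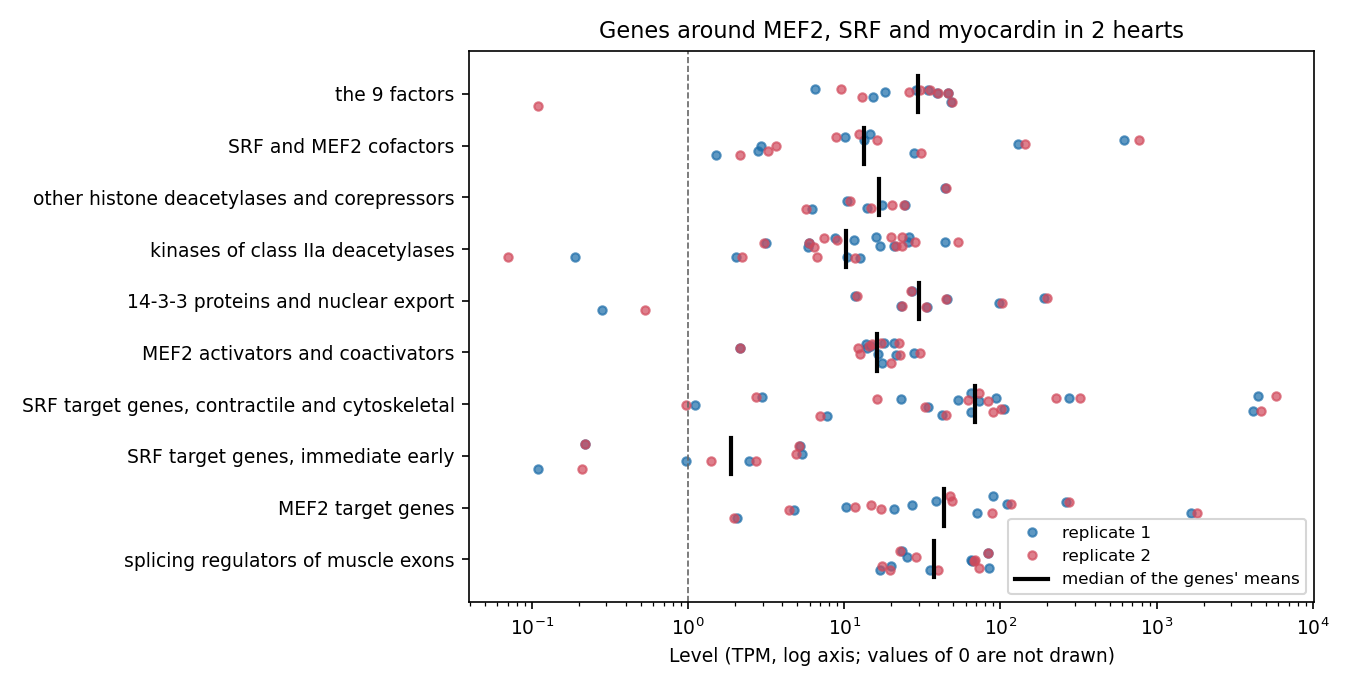
Level in TPM (log x axis) of each gene of the 9 factors and the 9 pathway lists (y axis), in replicate 1 (blue) and replicate 2 (red), with the median of the genes' means as a black line and 1 TPM as a dashed line. Contractile SRF targets have a median of 69.2 TPM and immediate early ones of 1.88.

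Among the 89 pathway genes, the level closest to each factor over the 2 hearts, by the summed difference of log2(TPM + 0.1), was sought as a description. Ywhaz (45.2 and 44.9 TPM) was closest to both Mef2a and Hdac5. Rbfox2 (35.2 and 39.8) was closest to Mef2d, Ywhah (33.7 and 33.4) to Srf, Kat2b (27.8 and 30.6) to Myocd, Camk1 (20.96 and 23.6) to Mef2c, Ep300 (16.4 and 12.7) to Hdac4, Myh11 (7.78 and 6.99) to Hdac9 and Fosb (0.11 and 0.21) to Mef2b. The summed difference was 0.70 for Hdac9 and 1.63 for Mef2b, which was not reliably detectable, against at most 0.33 (Mef2c) for the others. Hdac9 and Mef2b were therefore less closely matched. With 2 hearts, such closeness is a matter of level and says nothing of shared pattern.

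Several of the genes overlap others in the annotation, and whether counting used the strand is not stated in the sources used here. Mef2a overlaps Lysmd4 on the opposite strand, Mef2d overlaps 1700113A16Rik, Srf overlaps Gm26904, and Hdac4 overlaps Gm26720 and Gm37048. On the same strand, Mef2a overlaps Gm44667 and Gm44668, Srf overlaps Mir6976, Hdac5 overlaps Mir8101, Hdac9 overlaps 4921508M14Rik, Gm18025 and Gm47357, and Hdac4 overlaps Gm37036. Reads in those stretches cannot be assigned to 1 gene with certainty.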

How the data were processed

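Total RNA from 2 hearts of 1 group was analysed from gene and transcript tables. Estimated counts and TPM per gene and transcript were deposited by the authors in a first quantification, with each transcript's percent of its gene also deposited by the authors, and in a second quantification per transcript. The deposited text files name mm10 and GENCODE M21. Column names are those of RSEM and kallisto, while the sources used here do not state the software itself or how it was set. Effective lengths, as deposited by the authors, were used only to describe genes.

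The 9 genes and all lists were chosen with earlier results of these data known. Gene TPM of the second quantification were summed over transcripts. Counts were rounded to whole numbers and scaled by TMM (edgeR 4.0.16, R 4.3.3), without spike-ins and 26248 rows that are not annotated genes. DESeq2 1.42.0 size factors were an alternative. Exons were located from the annotation by their place in the coding sequence, and models that do not reach a segment were left out of its share. Models with neither alpha exon were also left out of the alpha2 share. The 2-fold rule was tested on simulated counts. The shares were run on set TPM values with the same classification of models. That checks the summing and cannot show whether a model was classed rightly or its reads assigned rightly. Scripts ran in Python 3.11.15 with pandas 2.3.3, numpy 2.4.6, matplotlib 3.10.9 and scipy 1.17.1.

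Named were the 9 genes, the 3 highest and the lowest of each pathway list, genes in a ratio, the closest gene to each factor, the highest and lowest of each marker list, leading transcripts and transcripts at 10% or more in both hearts. 1 gene that this rule names is not reported here. Intervals and floors cover counting error only, because they were computed from the counts alone. The reads carry no molecular identifiers, so repeated copies of 1 fragment could not be told apart.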

Additional observations from a re-analysis of the deposited data

How the results depend on the processing

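The number of genes at 1 TPM or more stayed at 8 of 9 in the second quantification, with posterior mean TPM, with TPM over nuclear protein-coding genes, with protein-coding transcripts alone and without replicate 1 or 2. Neighbouring pairs apart in level were 8, and 5 with protein-coding transcripts alone. The pairs were kept from the order of all transcripts, in which Hdac5 stood first and not at place 6. The 5 is therefore not a count of neighbours in the coding order. Of the 8 genes at 1 TPM or more, none passed 2-fold between hearts or 1.5-fold between quantifications in the settings run. All 11 ratios between genes were above 0 in both hearts, and 9 of them with protein-coding transcripts alone, the exceptions being Hdac5 over Hdac4 and Hdac4 over Hdac9. Over all genes, leaving out the filter on low counts gave 2154 genes 2-fold higher in replicate 2 and 2704 in replicate 1, against 40 and 117. A filter at 10 TPM left 806 genes 1.5-fold apart between the quantifications (17.4%) against 1718 (15.5%), since fewer genes were compared. Of single values of the 9 genes, 176 moved by less than the spread between the hearts or the counting interval and 80 by more. These counts do not measure stability, because part of them was fixed in advance. Leaving out 1 of 2 hearts cannot move a mean by more than their SD. Leaving out the filter on low counts does not change the ratios of genes that passed it. TPM over nuclear protein-coding genes rescales every level of a heart by 1 factor. No mean ratio between genes changed sign. Differences between the hearts could not be recomputed with a heart left out. Incomplete transcript models limit the shares of Mef2c and Hdac4, and 2 hearts limit every SD.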
